A study of Mus musculus with 40 samples.

Results

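The comparison described here set mouse embryonic stem cells (mESCs) without *Cdk8* against wild-type (WT) mESCs, both after 4 h in DMSO, the solvent control of a study of the ATR inhibitor (ATRi) AZD6738. Its members were 10 of the 40 samples of the series, which are 2 sequencing lanes for each of 5 poly(A) RNA libraries, and they were chosen by genotype, treatment and sequencing multiplex alone. *Cdk8* knockout (KO) was represented by 3 independent clones, B9, H4 and C8, and WT by 2 biological replicates, WT_1 and WT_2. The clones were raised from single Cas9-expressing cells that had received a CRISPR RNA against *Cdk8*, so each is 1 cell line that also carries whatever its founder cell carried. The sources used here do not say whether the WT cells passed through single-cell expansion, so loss of *Cdk8* and the passage through cloning cannot be told apart in these libraries. All cells grew with serum and LIF on gelatin. The comparison asks which transcripts differ without *Cdk8* before any ATR inhibition.

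CDK8 is a cyclin-dependent kinase that pairs with Cyclin C. Together with MED12 and MED13 they form the kinase module, a detachable part of Mediator, the complex that links transcription factors on enhancers to RNA polymerase II. CDK19, MED12L and MED13L are paralogues that can take the place of CDK8, MED12 and MED13. The module can restrain or promote transcription depending on the gene, and it phosphorylates transcription factors. mESCs in serum and LIF are a mixture of states, in which most cells hold the naive pluripotency network and a few drift towards primitive endoderm, the lineage that lines the yolk sac and lays down a thick collagen IV and laminin membrane.

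The guide that cut *Cdk8* is shown with the 3 bases of the reference transcript that follow it, the PAM that Cas9 needs, in capitals.
*Cdk8* guide: aatatttcactgtcgacaagAGG
It matched chr5:146292673-146292692 on the plus strand of GRCm38, in coding exon 7 of the 13 exons of the transcript Cdk8-201. Poly(A) libraries count reads from the whole transcript, so a cut in exon 7 that shifts the reading frame can remove the protein and leave most of the reads. *Cdk8* stood at 80.1 and 72.5 CPM (counts per 1000000 reads in genes, TMM normalised) in WT_1 and WT_2 and at 58.3, 58.1 and 65.5 CPM in B9, H4 and C8. All clones lay below both WT libraries, with a mean that was 79.5% of WT, a log2 fold change of -0.33 ± 0.09 (SE) and an adjusted p of 0.235 (Benjamini-Hochberg) by the quasi-likelihood test of edgeR. The transcript therefore did not separate the genotypes at the threshold of 0.05, and this measurement cannot show whether protein remained. The study's authors reported testing their KO clones for loss of the protein by western blot and genotyping them.

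Totals of the 5 libraries ran from 30899823 to 48650315 reads in genes, with a median of 36879053, and mitochondrial genes took 1.14% to 1.45% of them. The cells carried the transcripts that define mESCs in every library. *Pou5f1* ranged from 1143 to 1436 CPM, *Sox2* from 361 to 455, *Nanog* from 210 to 340, *Esrrb* from 382 to 695, *Zfp42* from 324 to 628 and *Klf4* from 119 to 244. H4 stood farthest from WT. Over 10528 genes with a mean of at least 5 CPM, the SD of the log2 difference was 0.179 between the WT libraries, 0.249 and 0.255 between B9 and the WT libraries, 0.289 and 0.310 for C8, and 0.408 and 0.369 for H4. H4 also lay 0.370 from B9 and 0.301 from C8, whereas B9 and C8 lay 0.227 apart. The counts of genes that passed are therefore also given without it, as are the medians of the lists in which it stood apart.

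Of 16904 genes that passed the filter on low counts, 3 rose (0.0177%) and 2 fell (0.0118%) in the clones at an adjusted p under 0.05. The genes that rose were *Col4a1*, *Col4a2* and *P4ha2*, which encode both chains of the most common collagen IV and an enzyme that hydroxylates prolines in collagen. The genes that fell were *Ntn1*, which encodes the secreted guidance protein netrin-1, and *Rps4l*, a transcribed processed pseudogene of a ribosomal protein gene. The short list does not show that other genes were level. The levels of all 3 clones lay above both WT libraries for 2656 genes (15.7%) and below both for 2675 genes (15.8%), and 430 of the former and 100 of the latter differed by more than 2-fold. At an unadjusted p under 0.05 there were 2009 genes (11.9%), 1058 higher and 951 lower, and 23 genes had an adjusted p under 0.1. With 2 and 3 libraries, many genes fall to 1 side of WT, or under an unadjusted p of 0.05, without any difference between the genotypes. These counts are therefore not counts of changed genes. The median log2 fold change of all genes tested was 0.01. The farthest clone from WT among the 430 genes was H4 for 248, C8 for 135 and B9 for 47. Without H4, 84 genes rose (0.499%) and 55 fell (0.327%) of 16845 tested. No gene passed when either WT library was left out, which leaves 1 WT library, against 1047 genes at an unadjusted p under 0.05 without WT_1 and 983 without WT_2.

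**Figure D1:**
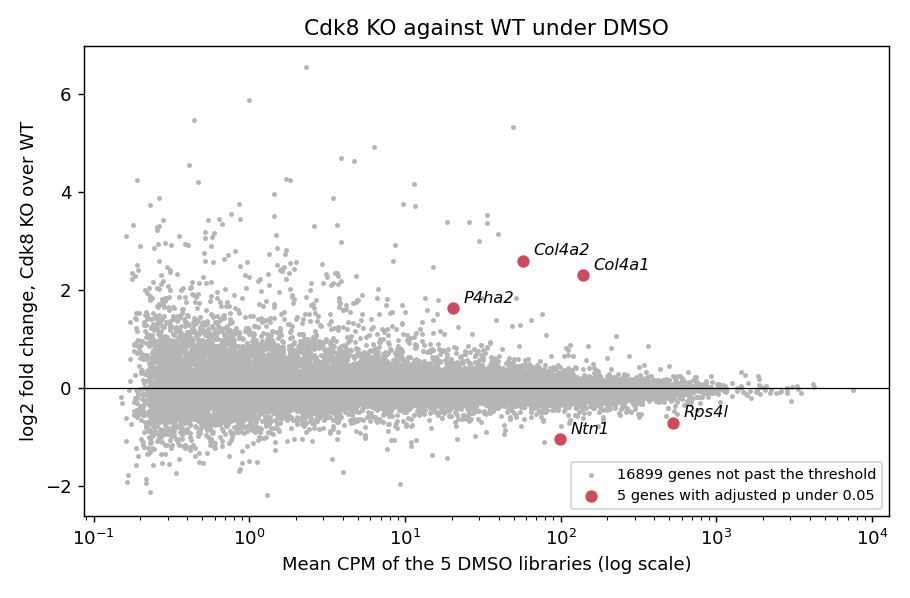
Each point is 1 of 16904 genes, by its mean CPM in the 5 DMSO libraries (log axis) and its log2 fold change, *Cdk8* KO over WT. The 5 genes with an adjusted p under 0.05 are red, and many genes of low level have larger fold changes that did not pass.

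Collagen IV gave the clearest difference between the genotypes. *Col4a1* (chr8:11198423-11312826, minus strand, GRCm38) stood at 38.6 and 44.0 CPM in WT_1 and WT_2 and at 186, 197 and 227 CPM in B9, H4 and C8. Its group means were 41.3 ± 3.81 (SD, n = 2) and 203 ± 20.9 (SD, n = 3). It rose 4.93-fold with a log2 fold change of 2.30 ± 0.11 (SE) and an adjusted p of 0.00185 (edgeR). *Col4a2* (chr8:11312805-11449287, plus strand) is its neighbour, and the annotated 5′ ends of the pair overlap head to head. *Col4a2* stood at 12.9 and 15.6 CPM in WT and at 75.0, 85.7 and 96.1 CPM in B9, H4 and C8, a log2 fold change of 2.59 ± 0.14 (SE, adjusted p 0.00224, edgeR). *P4ha2* (chr11:54100095-54131665, plus strand) stood at 8.17 and 9.94 CPM in WT and at 25.1, 26.4 and 31.6 CPM in the clones, a log2 fold change of 1.62 ± 0.15 (SE, adjusted p 0.0414, edgeR). For all of these genes the clones lay close together and well above WT, and H4 did not stand apart. *Col4a1* and *Col4a2* kept their call in 10 of 12 other settings and *P4ha2* in 8, and all were lost when either WT library was left out. *P4ha2* was also lost without C8 and with limma voom.

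The list of basement membrane and collagen processing genes holds 24 genes, of which 23 were tested, 3 rose and none fell, and all 3 clones lay above both WT libraries for 16, against 15.7% of all genes. Its median log2 fold change was 0.31, and without H4 7 of its members rose. *Sparc*, a collagen-binding matrix protein, stood at 237 and 254 CPM in WT and at 466, 399 and 465 CPM in B9, H4 and C8, with an adjusted p of 0.0541 (edgeR). *Serpinh1*, the collagen chaperone HSP47, stood at 28.4 and 31.3 CPM in WT and at 47.3, 85.9 and 82.6 CPM in the clones (adjusted p 0.146, edgeR). The laminin chains *Lama1* and *Lamb1* had log2 fold changes of 0.77 ± 0.15 and 0.87 ± 0.14 (SE) with adjusted p of 0.146 and 0.112 (edgeR). *P4ha1*, the paralogue of *P4ha2*, had a log2 fold change of 0.71, and *Loxl2*, a lysyl oxidase that crosslinks collagen IV, had one of 1.77, also without passing.

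*Ntn1* (chr11:68209364-68400823, minus strand) stood at 148 and 139 CPM in WT_1 and WT_2 and at 72.0, 68.6 and 67.2 CPM in B9, H4 and C8. The clones lay between 67.2 and 72.0 CPM, and *Ntn1* fell by 1.05 on the log2 scale (SE 0.07, adjusted p 0.00548, edgeR). *Rps4l* (chr6:148354656-148355598, plus strand) stood at 692 and 696 CPM in WT and at 433, 396 and 432 CPM in the clones, and fell by 0.72 on the log2 scale (SE 0.07, adjusted p 0.0414, edgeR). Because *Rps4l* is a near copy of a ribosomal protein gene, reads can be split between the copies and its level is uncertain. *Ntn1* kept its call except when a WT library was left out, and *Rps4l* lost it as well without B9, without C8 and with all 10 libraries of the multiplex. The next lowered genes passed without H4 but not with all clones. *Egr1*, an immediate early transcription factor, stood at 31.2 and 28.4 CPM in WT and between 9.94 and 13.2 CPM in the clones, with H4 the highest, a log2 fold change of -1.43 ± 0.15 (SE, adjusted p 0.0541, and 0.00160 without H4, edgeR). *Ptch1*, the Hedgehog receptor, *Sox13*, a transcription factor of the SOX family, and *Cnpy1* were chosen after their values were seen. They had log2 fold changes of -0.78, -0.95 and -0.67, each with an adjusted p of 0.0541 (edgeR), and without H4 the adjusted p was 0.0137, 0.00180 and 0.0148 in that order.

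**Figure D2:**
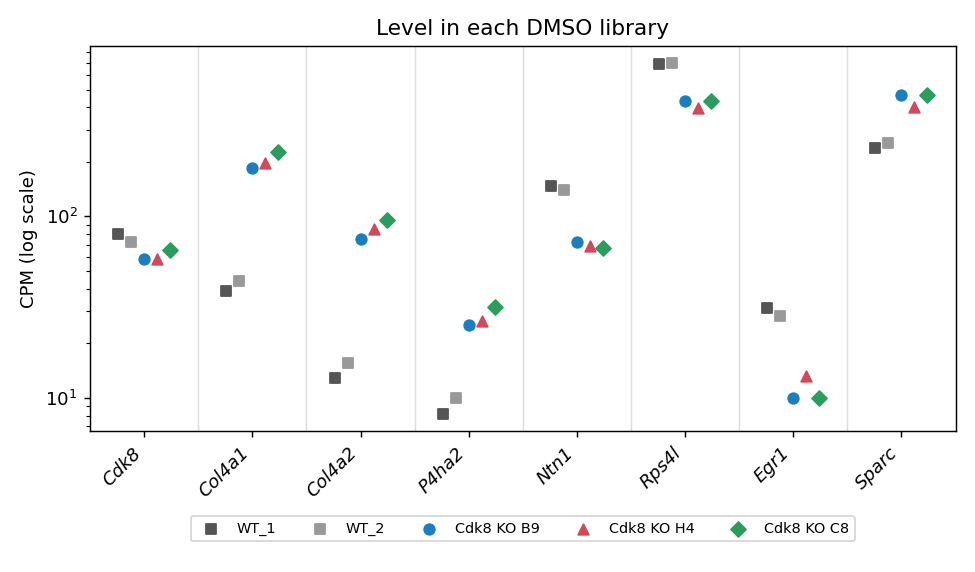
CPM (log axis) of *Cdk8*, the 5 genes that passed the test, *Egr1* and *Sparc* in each of the 5 DMSO libraries, with WT as squares and the clones as circle (B9), triangle (H4) and diamond (C8). For every gene shown the clones fall to one side of both WT libraries, and for *Col4a1* they span 186 to 227 CPM against 38.6 and 44.0 CPM in WT.

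Regulators of primitive endoderm lay above WT as a group. The list holds 10 genes, all tested, and in each of them all 3 clones lay above both WT libraries (15.7% of all genes), with a median log2 fold change of 2.20 and a range from 0.98 to 3.37. None passed the test, with adjusted p from 0.0541 to 0.271 (edgeR), and without H4 7 of the 10 rose. The list had been written with genes known that the study called in these libraries, so its direction is not independent evidence. *Gata6*, the factor at the head of the primitive endoderm programme, stood at 3.68 and 5.51 CPM in WT_1 and WT_2 and at 9.85, 6.40 and 10.9 CPM in B9, H4 and C8. *Gata4*, its partner, stood at 2.96 and 3.56 CPM in WT and at 8.82, 8.06 and 10.9 CPM in the clones. *Sox17* stood at 0.714 and 1.83 CPM in WT and at 3.25, 3.33 and 4.10 CPM in the clones, and *Sox7* at 1.18 and 0.929 against 5.99, 3.68 and 6.59 CPM. Both are SOX factors of the extraembryonic endoderm, and H4 was close to the other clones for *Sox17* and lowest of the clones for *Sox7*.

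*Dab2*, an adaptor for endocytosis that marks primitive endoderm, had the widest gap of the list. It stood at 4.26 and 6.04 CPM in WT and at 46.5, 35.1 and 77.3 CPM in B9, H4 and C8, a log2 fold change of 3.37 ± 0.37 (SE, adjusted p 0.0541, edgeR). *Hnf4a*, a nuclear receptor of endoderm, had a log2 fold change of 2.90, and the forkhead factors *Foxa2* and *Foxq1* had 2.26 and 2.13. Counts were few for *Hnf4a*, with 5 and 4 in WT_1 and WT_2 and 49, 12 and 39 in B9, H4 and C8. It passed the filter on low counts through the clones, so its place above WT partly follows from the filter. *Foxa2* had 9 and 14 counts in WT and 58, 39 and 66 in the clones. *Pdgfra*, the receptor used to sort primitive endoderm cells, stood at 2.31 and 3.28 CPM in WT and at 5.57, 3.99 and 6.94 CPM in the clones. In these bulk libraries a larger number of endoderm cells and more endoderm RNA in each cell cannot be told apart. The order of the clones was not that of their distance from WT, since H4 had the lowest median of this list, 1.58, against 1.83 in B9 and 2.64 in C8.

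Genes that mature visceral endoderm uses to take up and secrete proteins mostly followed the same direction. Of 30 genes on the list 23 were tested, none passed, and for 19 all clones lay above both WT libraries (15.7% of all genes), with a median log2 fold change of 1.80. Without H4, 10 of the 23 rose. *Cubn*, the receptor cubilin, stood at 3.05 and 4.71 CPM in WT and at 40.9, 23.9 and 56.0 CPM in B9, H4 and C8 (log2 fold change 3.39 ± 0.40 (SE), adjusted p 0.0549, edgeR). Its partners *Amn*, amnionless, and *Lrp2*, megalin, had log2 fold changes of 1.89 and 1.07. *Srgn*, the proteoglycan serglycin, stood at 1.05 and 0.991 CPM in WT and at 14.3 and 29.1 CPM in B9 and C8, with H4 a little below B9 (log2 fold change 4.16 ± 0.46 (SE), adjusted p 0.0541, edgeR). The lysosomal proteases *Ctsl* and *Ctsc* had log2 fold changes of 1.06 and 1.80. *Nostrin*, *Cited1*, *Ihh*, the Indian hedgehog ligand, and *Cyp26a1*, which degrades retinoic acid, had log2 fold changes of 4.25, 3.33, 2.78 and 2.42 at mean levels between 1.23 and 5.74 CPM in the clones. In WT_1 and WT_2 *Nostrin* had only 3 and 8 counts and *Ihh* 9 and 5. Such genes passed the filter on low counts through the clones, so the share above WT and the median of the list partly follow from the filter. *Apoe*, the member with the highest level, stood at 284 and 271 CPM in WT and at 268, 374 and 323 CPM in the clones, so its groups overlapped.

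**Figure D3:**
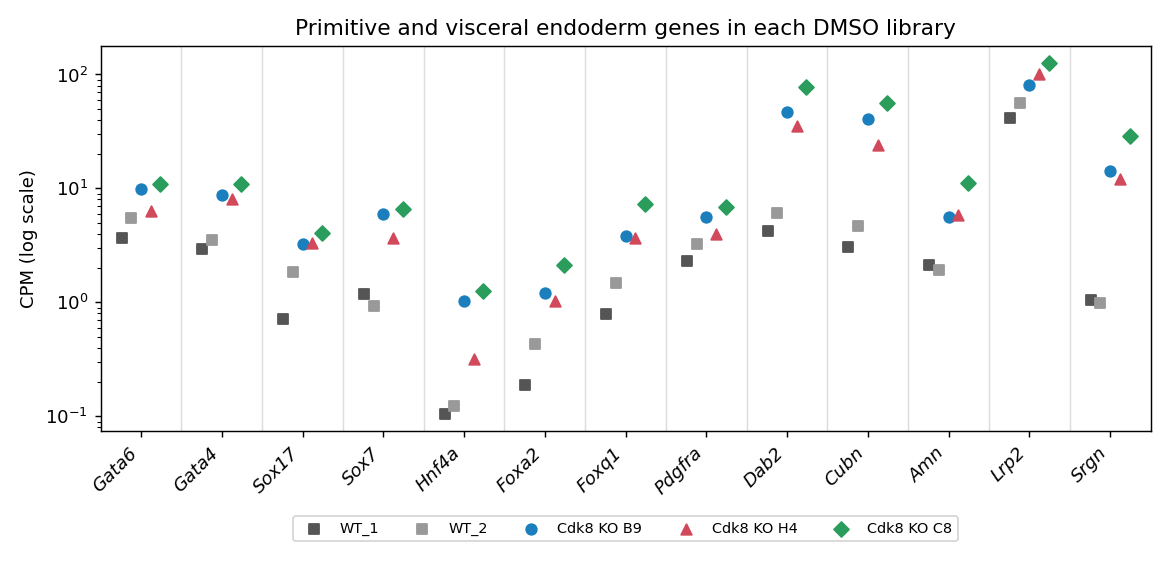
CPM (log axis) of 9 primitive endoderm regulators (*Gata6* to *Dab2*) and 4 visceral endoderm genes (*Cubn*, *Amn*, *Lrp2*, *Srgn*) in each of the 5 DMSO libraries, with WT as squares and the clones as circle, triangle and diamond. All 3 clones lie above both WT libraries for each gene, and C8 is the highest for all 13.

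The naive pluripotency list moved the other way by smaller amounts. All 26 genes were tested, none passed, and all clones lay below both WT libraries for 18 of them and above for 1, against 15.8% and 15.7% of all genes, with a median log2 fold change of -0.34. Without H4 the median was -0.24 and 2 of the genes fell, *Klf2* and *Fbxo15*, with adjusted p of 0.0387 and 0.0187 (edgeR). *Esrrb*, an orphan nuclear receptor of the naive network, stood at 695 and 689 CPM in WT_1 and WT_2 and at 578, 382 and 472 CPM in B9, H4 and C8 (log2 fold change -0.54 ± 0.15 (SE), adjusted p 0.266, edgeR). *Klf4* stood at 225 and 244 CPM in WT and at 202, 119 and 147 CPM in the clones, and *Klf2* at 297 and 304 against 225, 164 and 221 CPM. H4 was lowest and B9 nearest to WT for these factors, and the median log2 ratio of the list to WT was -0.19 in B9, -0.32 in C8 and -0.62 in H4. *Fbxo15*, a classical mESC reporter gene, did not follow that order. It stood at 188 and 184 CPM in WT and at 131, 131 and 125 CPM in the clones (log2 fold change -0.52 ± 0.06 (SE), adjusted p 0.0549, edgeR).

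Parts of the LIF pathway that keeps mESCs naive were on the same list. *Il6st*, the shared receptor chain, had a log2 fold change of -0.32, *Stat3*, the factor it activates, -0.41, and *Socs3*, a STAT3 target and feedback inhibitor, -0.44. *Nr0b1* had -0.44, and *Nanog* stood at 340 and 325 CPM in WT and at 321, 210 and 260 CPM in B9, H4 and C8. *Tdh*, the threonine dehydrogenase of mESCs, stood at 735 and 720 CPM in WT and at 677, 496 and 640 CPM in the clones. The list of core and formative pluripotency genes showed less in its median, -0.05, with 16 of 17 genes tested and none passed. Its log2 fold changes ran from -0.38 to 3.27. *Pou5f1*, which encodes OCT4, stood at 1436 and 1283 CPM in WT and at 1229, 1143 and 1267 CPM in the clones, and *Utf1* at 618 and 650 against 537, 464 and 459 CPM. *Sox2*, on the naive list, had a log2 fold change of -0.27 ± 0.06 (SE, adjusted p 0.196, edgeR).

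Neuroectoderm genes lay below WT more often than above it. Of 30 listed genes 22 were tested, *Ntn1* fell, none rose, and all clones lay below both WT libraries for 12 and above for 3, against 15.8% and 15.7% of all genes, with a median log2 fold change of -0.58. Without H4 the median was -0.43 and 5 members fell. With all clones the log2 fold changes ran from -1.70 to 2.37 and were above 0 for 8 members. The members named here were all lower in the clones. *Zic2*, a zinc finger factor of the early neural plate, stood at 16.5 and 17.6 CPM in WT and at 6.72, 8.96 and 8.94 CPM in B9, H4 and C8 (adjusted p 0.112, edgeR). *Pax6* stood at 12.1 and 11.4 CPM in WT and at 4.17, 7.54 and 5.26 CPM in the clones. *Gad1*, which makes the transmitter GABA, had a log2 fold change of -1.70 ± 0.33 (SE) with an adjusted p of 0.146 (edgeR). *Gbx2*, listed here and a LIF target in mESCs, stood at 176 and 172 CPM in WT and at 151, 96.0 and 118 CPM in the clones.

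A separate set of genes divided the clones from one another. The 8 genes with the largest range among clones were *Acta1*, *Acta2*, *Cnn1*, *Tagln*, *H19*, *Thbs1*, *Krt19* and *Anxa3*, and for all but *H19* the order was B9, then C8, then H4. *Acta2*, smooth-muscle actin, stood at 1.58 and 2.51 CPM in WT_1 and WT_2, at 4.67 in B9, at 41.5 in C8 and at 196 in H4, which was 2.29, 20.3 and 95.9 times the WT mean. *Acta1*, skeletal actin, stood at 0.315 and 0.371 CPM in WT and at 0.542, 4.07 and 26.4 CPM in B9, C8 and H4. The actin-binding proteins *Tagln* and *Cnn1* stood at 5.57 and 1.27 CPM in B9 and at 123 and 36.4 CPM in H4, and in B9 *Cnn1* lay between the WT libraries at 0.945 and 1.39 CPM. None of these genes passed the test. The mean of *Acta2* was 80.7 ± 101 CPM (SD, n = 3) in the clones and 2.04 ± 0.659 (SD, n = 2) in WT, with an adjusted p of 0.266 (edgeR). Without H4 the log2 fold change of *Acta2* went from 5.33 to 3.52 and that of *Acta1* from 4.91 to 2.71, and neither passed.

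Most of these contractile genes are known targets of SRF, a factor that binds the CArG box and responds to the state of the actin cytoskeleton. Sequences of 150 bases before the start of *Acta1* and *Actc1*, a further actin gene on the list, are shown because each holds a CArG box, in capitals (RefSeq, GRCm38.p6).
*Acta1*, chr8:123894776-123894925, minus strand: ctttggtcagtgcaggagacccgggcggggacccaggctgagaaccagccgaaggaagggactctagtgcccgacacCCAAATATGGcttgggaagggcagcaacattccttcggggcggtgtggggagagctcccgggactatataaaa
*Actc1*, chr2:114052876-114053025, minus strand: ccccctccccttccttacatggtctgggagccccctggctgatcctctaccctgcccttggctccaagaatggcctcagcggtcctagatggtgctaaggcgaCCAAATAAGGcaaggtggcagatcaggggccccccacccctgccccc
The box began 73 bases before the start of *Acta1* and 47 bases before that of *Actc1*. On either strand, 1.62% of 27025 genes with a promoter entry held a CArG box in the 250 bases before the start, and 10 of the 26 listed actin and SRF target genes with an entry did. The list was made of actin cytoskeleton genes and known SRF targets, so a high share follows from that choice and says nothing about the clones. *Acta2* was not among those 10 genes. That says only that it had no exact match in that window or no entry, since boxes with a changed base were not searched for. *Cnn1* and *Tagln* were not among the 10 genes with a box either. *Actc1* had 1 and 2 counts in the WT libraries, 2 in B9, 63 in C8 and 357 in H4.

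Of 30 actin cytoskeleton and SRF target genes 29 were tested and none passed, with a median log2 ratio to WT of 0.08 in B9, 0.37 in C8 and 1.25 in H4. The median fold change of the list was 0.64 on the log2 scale with all clones and 0.20 without H4. *Myl9*, a myosin light chain, stood at 5.59 and 7.80 CPM in WT and at 8.24, 18.4 and 42.1 CPM in B9, C8 and H4, and *Cald1*, caldesmon, at 16.4 and 24.4 against 30.9, 40.0 and 146 CPM. *Actb*, the main cytoplasmic actin, did not share this order. It stood at 1831 and 1797 CPM in WT and at 1599, 1561 and 1547 CPM in B9, C8 and H4, and *Flna*, filamin A, at 621 and 708 against 716, 649 and 957 CPM. The YAP-TEAD list joins targets of YAP and TEAD, the factors that the Hippo pathway restrains, with genes of the pathway itself. Its medians were 0.10, 0.11 and 0.89 in B9, C8 and H4 over 24 genes, of which none passed. The median fold change of this list on the log2 scale was 0.40 with all clones and 0.14 without H4, when 2 members rose, *Amot* and *Ankrd1*. *Thbs1*, thrombospondin 1, stood at 0.924 and 1.95 CPM in WT and at 2.52, 9.01 and 43.6 CPM in B9, C8 and H4. *Ccn1* stood at 10.9 and 13.6 CPM in WT and at 18.3, 27.8 and 85.8 CPM in the clones in that order, and *Ccn2* at 31.0 and 35.3 against 30.2, 65.4 and 163 CPM. *Ankrd1* had 2 counts and 0 counts in the WT libraries and 38, 19 and 133 counts in B9, C8 and H4. *Amot*, an angiomotin that binds YAP, stood at 14.6, 25.3 and 16.9 CPM in B9, C8 and H4 against 5.44 and 7.15 CPM in WT, so it was not highest in H4. The pathway genes *Yap1* and *Ajuba* stood at 228 and 233 and at 262 and 262 CPM in WT, and between 228 and 237 and between 235 and 263 CPM in the clones.

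Simple keratins, the filaments of early epithelia such as trophectoderm and visceral endoderm, gave the same order of clones. Of 19 genes 17 were tested, none passed, 12 had all clones above WT (15.7% of all genes), and without H4 1 rose, *Krt8*. The median log2 fold change was 1.39 with all clones and 0.75 without H4. *Krt8* stood at 7.31 and 6.75 CPM in WT and at 18.3, 31.1 and 135 CPM in B9, C8 and H4. Its pairing partner *Krt18* stood at 5.21 and 6.35 against 10.8, 23.7 and 104 CPM, and *Krt19* at 2.52 and 3.06 against 4.71, 15.3 and 67.4 CPM. *Cldn6*, a tight junction claudin of embryonic epithelia, stood at 20.1 and 18.7 CPM in WT and at 28.4, 41.9 and 82.9 CPM in the clones. *Tfap2c*, a transcription factor that specifies trophectoderm, did not go with the keratins. It stood at 39.6 and 48.2 CPM in WT and at 24.2, 33.3 and 51.6 CPM in B9, C8 and H4. *Anxa3*, an annexin, stood at 3.11 and 5.05 CPM in WT and at 4.07 and 52.2 CPM in B9 and H4, with C8 between them. *H19*, the imprinted noncoding RNA, ran opposite in H4, at 14.1 and 13.4 CPM in WT, 18.5 in B9, 34.2 in C8 and 1.80 in H4.

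**Figure D4:**
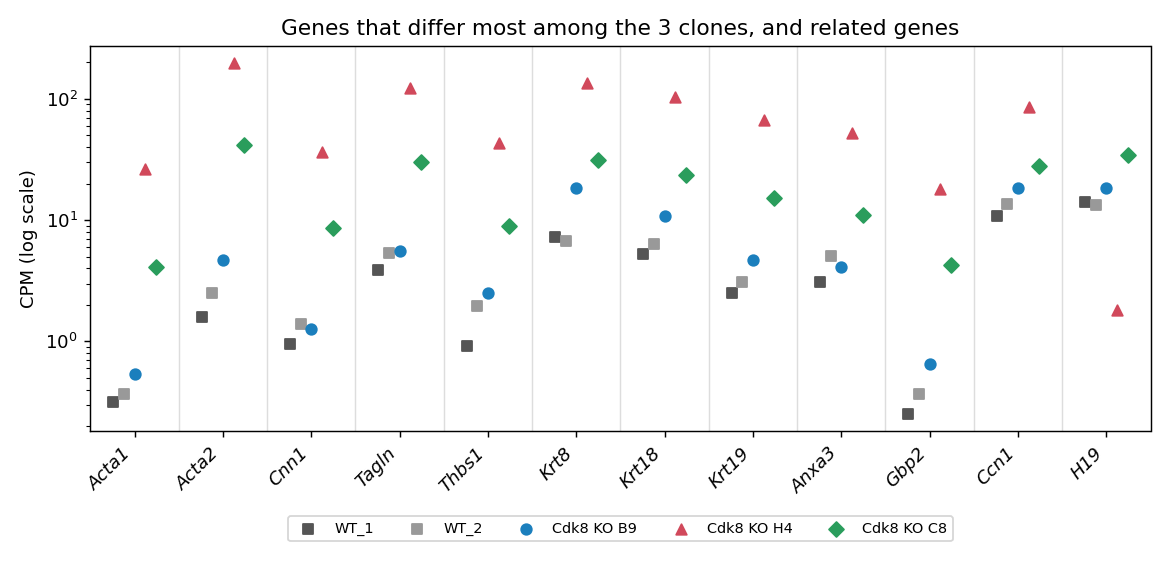
CPM (log axis) in each of the 5 DMSO libraries of the 8 genes with the largest range among the clones and of *Krt8*, *Krt18*, *Gbp2* and *Ccn1*, with WT as squares and the clones as circle (B9), triangle (H4) and diamond (C8). On this log axis B9 is the clone nearest to WT and H4 the farthest for every gene shown, and for *H19* H4 lies below WT, at 1.80 CPM.

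Interferon response and MHC class I genes, which present peptides to T cells, lay above WT more often than below it. Of 42 genes 33 were tested, none passed, and all clones lay above both WT libraries for 17 and below for 2, against 15.7% and 15.8% of all genes, with a median log2 fold change of 0.60, or 0.45 without H4. The summed level of the list was 617 to 671 CPM. *B2m*, the light chain of MHC class I, stood at 4.10 and 4.49 CPM in WT_1 and WT_2 and at 6.99, 11.9 and 9.43 CPM in B9, H4 and C8, and *H2-D1*, a heavy chain, at 10.2 and 10.8 against 15.4, 17.2 and 19.3 CPM. *Rnf213* and *Xaf1* had log2 fold changes of 1.11 and 1.19 with adjusted p of 0.112 and 0.118 (edgeR), and both rose without H4. The guanylate-binding protein genes *Gbp2* and *Gbp2b* followed the order of the clones in the actin genes instead. *Gbp2* stood at 0.252 and 0.371 CPM in WT and at 0.647, 4.29 and 17.9 CPM in B9, C8 and H4, and *Gbp2b* at 0.210 and 0.279 against 0.480, 3.78 and 14.6 CPM. The listed members with the highest levels, *Trim25* and *Psmb10*, stood between 179 and 239 and between 80.5 and 114 CPM and had log2 fold changes of -0.18 and 0.06.

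The other genes of the kinase module did not pass either. *Med12l* stood at 1.28 and 1.70 CPM in WT and at 2.71, 3.17 and 3.00 CPM in B9, H4 and C8, a log2 fold change of 1.00 ± 0.23 (SE, adjusted p 0.194, edgeR). *Med13l* stood at 99.2 and 113 CPM in WT and at 86.3, 88.6 and 82.2 CPM in the clones (log2 fold change -0.31, adjusted p 0.233, edgeR). *Cdk19*, the paralogue of *Cdk8*, stood at 14.7 and 14.9 CPM in WT and at 12.6, 14.1 and 11.9 CPM in the clones. *Ccnc*, which encodes Cyclin C, stood at 47.0 and 44.6 CPM in WT and at 47.2, 46.2 and 48.9 CPM in the clones, with a log2 fold change of 0.05 ± 0.08 (SE). *Med12* and *Med13* had log2 fold changes of -0.08 and 0.07. The 26 core Mediator subunits lay between -0.22 and 0.11, with a median of -0.05 and none passed, and *Med24* and *Med1*, those with the highest levels, had -0.14 and -0.03.

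Immediate early genes, which cells switch on within minutes of a growth factor or stress signal, did not move together. Of 21 genes 18 were tested and none passed, with a median log2 fold change of 0.10, or -0.10 without H4. The median log2 ratio to WT was -0.19 in B9, -0.08 in C8 and 0.44 in H4. *Egr1* was the member with the smallest adjusted p. *Nr4a1* stood at 79.9 and 89.1 CPM in WT and at 68.3, 68.0 and 61.7 CPM in B9, H4 and C8, whereas *Atf3*, a stress-induced factor, stood at 2.06 and 2.20 against 3.40, 5.58 and 5.39 CPM. *Ier2* and *Myc*, the members with the highest levels, had log2 fold changes of -0.14 and -0.29. Targets and parts of FGF-ERK signalling, the pathway that drives mESCs towards primitive endoderm, had a median of 0.01 over 15 genes. Without H4 that median was -0.23. Their members with the highest levels were the ERK-induced factors *Etv4*, at 392 and 394 CPM in WT and 439, 327 and 306 CPM in B9, H4 and C8, and *Etv5*, at 270 and 282 against 244, 216 and 219 CPM.

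Other signalling lists had small medians with all clones. The Wnt list had a median of -0.05 over 20 genes and none passed. Its effector *Ctnnb1*, beta-catenin, had a log2 fold change of -0.09, and its target *Ccnd1* one of -0.01. The secreted Wnt inhibitor *Dkk1* stood at 0.798 and 1.05 CPM in WT and at 4.30, 2.91 and 6.52 CPM in the clones, and *Wls*, which carries Wnt proteins to the cell surface, at 1.32 and 1.64 against 4.17, 11.2 and 5.94 CPM. Both rose without H4, and 1 other member of the list fell. The Nodal and BMP list had a median of -0.07 over 20 genes and none passed. The co-receptor *Tdgf1* and the ligand *Gdf3* had log2 fold changes of -0.27 and -0.09, and the ligand *Bmp4* stood at 105 and 95.8 CPM in WT and at 86.3, 46.5 and 55.2 CPM in B9, H4 and C8. The Notch list had a median of -0.07, or -0.18 without H4. None of its 13 genes tested passed or had groups that did not overlap. Its transcription factor *Rbpj* stood at 131 and 139 CPM in WT and at 151, 77.7 and 126 CPM in the clones, and the ligand *Jag2* at 55.2 and 67.3 against 37.6, 66.3 and 44.3 CPM.

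The study's question concerns replication stress, and the genes of DNA replication, checkpoint and mitosis showed small differences only. Of 34 G1/S and replication genes none passed, 32 had a log2 fold change above 0, against 8680 of the 16904 genes tested, and the median was 0.10. All clones lay above both WT libraries for 11 and below for none, against 15.7% and 15.8% of all genes. *Rrm2*, a subunit of ribonucleotide reductase, stood at 381 and 359 CPM in WT and at 482, 487 and 465 CPM in B9, H4 and C8 (log2 fold change 0.37 ± 0.07 (SE), adjusted p 0.138, edgeR), and *Ccne2*, cyclin E2, at 31.7 and 29.8 against 41.6, 43.1 and 40.5 CPM. The replicative helicase genes *Mcm5* and *Mcm2* had log2 fold changes of 0.07 and 0.01. Over 28 G2/M and mitosis genes the range was -0.12 to 0.14, and *Ccnb1*, which encodes the mitotic Cyclin B1, stood at 239 and 231 CPM in WT and at 236, 261 and 248 CPM in the clones (log2 fold change 0.08 ± 0.07 (SE), adjusted p 0.694, edgeR). *Top2a* and *Cdc20* had log2 fold changes of 0.10 and -0.10.

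Over 30 ATR signalling and R-loop genes the range was -0.16 to 0.36 with a median of 0.07, or 0.10 without H4, and none passed. *Atr* stood at 64.3 and 75.0 CPM in WT and at 74.3, 68.3 and 64.0 CPM in B9, H4 and C8. *Chek1*, which encodes the kinase that ATR activates, stood at 95.8 and 88.8 against 113, 96.3 and 116 CPM, and *Cdc25a*, which encodes a phosphatase that CHK1 restrains, at 190 and 168 against 188, 182 and 198 CPM. *Fanci*, of the Fanconi anaemia pathway, had the smallest adjusted p of the list, 0.168 (edgeR), and stood at 75.2 and 76.1 CPM in WT and at 97.1, 103 and 90.9 CPM in the clones. The helicases *Ddx5* and *Dhx9* and the RNA:DNA hybrid nuclease *Rnaseh1* had log2 fold changes of -0.09, -0.03 and -0.16.

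Targets of p53 differed between H4 and the other clones, with medians of -0.22 in B9, -0.20 in C8 and 0.41 in H4 over 24 genes, of which none passed. The median fold change of the list was -0.01 on the log2 scale with all clones and -0.19 without H4, when 1 member rose and 1 fell. *Trp53* itself stood at 730 and 814 CPM in WT and at 634, 649 and 614 CPM in B9, H4 and C8, and *Bax*, a pro-apoptotic target, at 261 and 256 against 210, 219 and 202 CPM. *Dram1*, a lysosomal target, stood at 0.693 and 0.341 CPM in WT and at 2.38, 1.75 and 4.55 CPM in the clones, and was the member that rose without H4. *Ccng1*, cyclin G1, stood at 292 and 359 CPM in WT and at 291, 316 and 481 CPM in B9, C8 and H4. Mitochondrially encoded protein genes had a median of -0.07 over 10 genes, with *mt-Co1* at 3568 and 4508 CPM in WT_1 and WT_2 and between 4031 and 4571 CPM in the clones, and *mt-Cytb* at 2556 and 3213 against 2626 to 3322 CPM.

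**Figure D5:**
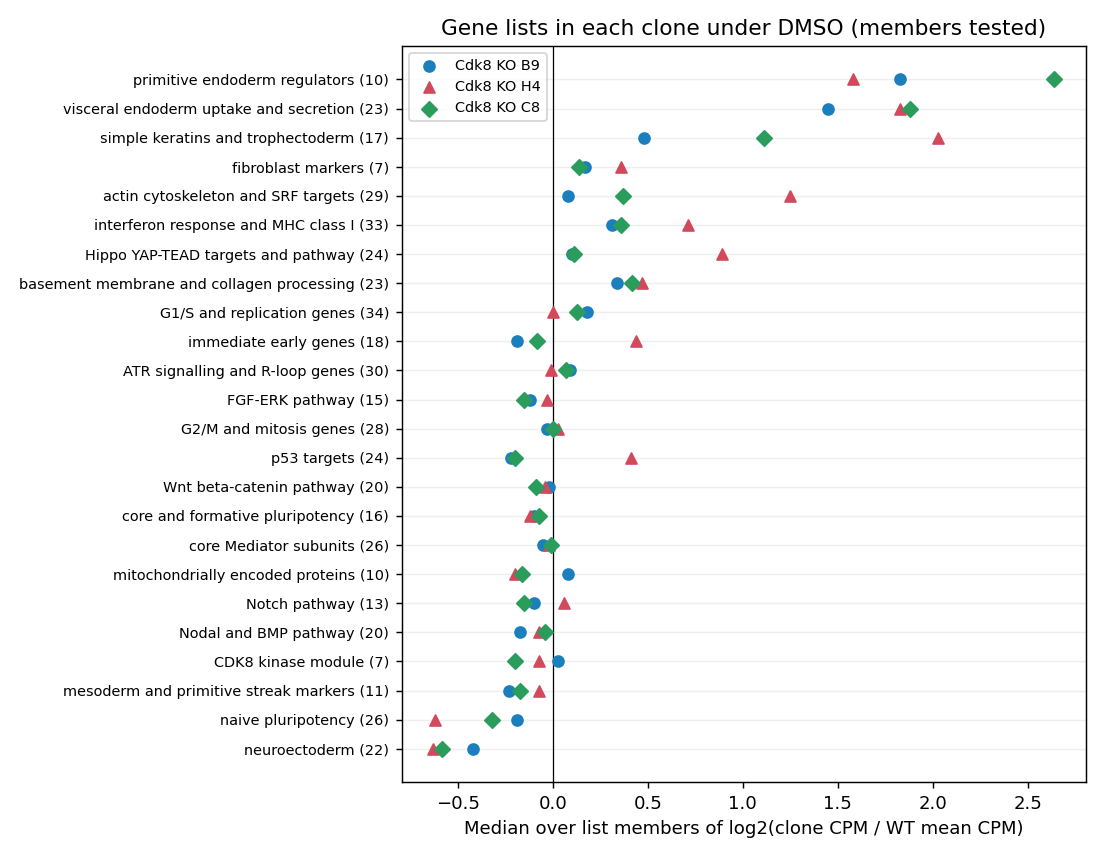
For each gene list (number of members tested in brackets), the median over members of the log2 ratio of a clone's CPM to the WT mean, with clones as circle (B9), triangle (H4) and diamond (C8). The primitive and visceral endoderm lists are at 1.45 or above in every clone and the neuroectoderm list at -0.42 or below. The keratin, actin, YAP-TEAD, interferon, immediate early and p53 lists have H4 apart at the highest value.

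Markers of other cells that a culture could hold had low sums. The summed level of 15 fibroblast markers was 27.3 and 28.8 CPM in WT and 33.1, 48.8 and 33.4 CPM in B9, H4 and C8, and 7 of them were tested. *Fbln1*, fibulin 1, stood at 15.7 and 18.3 CPM in WT and between 18.6 and 19.2 CPM in the clones, and *Col1a1*, the defining fibrillar collagen, at 2.18 and 1.83 against 2.07, 14.5 and 3.81 CPM. The 14 mesoderm and primitive streak markers summed to between 14.2 and 17.4 CPM in every library, with *Hand1* at 4.16 and 3.00 CPM in WT and between 2.94 and 5.95 CPM in the clones, and *Eomes* at 2.42 and 3.22 against 4.48, 3.38 and 3.68 CPM. Of 12 markers of the 2-cell-like state 11 were matched to a gene, summed to at most 0.526 CPM and had too few counts to be tested. The higher fibroblast sum in H4 moved with its actin, YAP-TEAD and keratin genes, and its part in those values was not tested.

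Medians over whole chromosomes lay near 0. For genes with a mean of at least 5 CPM, the median log2 ratio to WT of each of the 19 autosomes lay between -0.065 and 0.032 in the clones. The X chromosome, with 368 genes, had medians of 0.049, 0.065 and 0.065 in B9, H4 and C8, and 0.015 between the WT libraries. Chromosome 5, which carries *Cdk8*, had medians of -0.028, -0.065 and -0.025.

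The same clones were also sequenced after 4 h with 900 nM AZD6738, from parallel cultures in the same multiplex. The study's authors left out WT_2 under ATRi. Without it, with 1 WT library, none of 18023 genes was raised or lowered (0% each), with 1268 at an unadjusted p under 0.05. With WT_2 under ATRi, 2 of 17310 genes rose (0.0116%), *Col4a1* and *Col4a2*, and none fell. *Col4a1* stood under ATRi at 41.3 and 43.8 CPM in WT_1 and WT_2 and at 179, 200 and 257 CPM in B9, H4 and C8, and *Ntn1* at 134 and 116 against 65.7, 68.1 and 69.5 CPM. *Acta2* and *Egr1* had log2 fold changes of 6.02 and -1.22 under ATRi without WT_2. A test of the difference between the KO effects under DMSO and under ATRi called none of 18721 genes, with 255 at an unadjusted p under 0.05, and none of 17863 genes with WT_2 under ATRi, with 232.

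Clones without *Ccnc* were sequenced in another multiplex with the same WT RNA sequenced again, so both comparisons share their controls and their values are only set side by side. There 357 of 17067 genes rose (2.09%) and 278 fell (1.63%) in 3 *Ccnc* KO clones under DMSO. *Col4a1*, *Col4a2* and *P4ha2* rose there with log2 fold changes of 1.36, 1.83 and 1.15, and *Ntn1* and *Rps4l* fell by 1.42 and 0.51 on the log2 scale. In that comparison 7 of the 10 primitive endoderm regulators and 15 of the 23 visceral endoderm genes rose, with medians of 1.63 and 1.54. Of the naive pluripotency genes 7 fell and 2 rose, and of the neuroectoderm genes 8 fell and 1 rose. Of the basement membrane and collagen processing genes 5 rose and 2 fell. *Lama1* and *Lrp2* had log2 fold changes of 0.13 and 0.16 without *Ccnc* against 0.77 and 1.07 without *Cdk8*, and the difference was not tested. *Acta2*, *Acta1* and *Tagln* rose without *Ccnc* by 3.68, 2.83 and 1.68 on the log2 scale, and *Krt8* and *Krt19* by 1.42 and 1.94. *Ccnc* itself fell there by 2.82 on the log2 scale, against a log2 fold change of 0.05 in the clones without *Cdk8*.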

How the data were processed

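mESC RNA was sequenced as single-end, strand-specific poly(A) libraries. The authors trimmed reads with Trimmomatic 0.38, aligned them with HISAT2 2.1.0 to GRCm38.p6, and deposited unnormalised counts per gene and lane, made with featureCounts 2.0.1 set to strand 2 and to ignore reads marked as duplicates. Tables of rlog values from DESeq2 were deposited too and were not used. Reads of near-identical or overlapping genes can be lost or split in these counts, which touches *Rps4l* and, through shared exon sequence, *Med12*, *Med24*, *Ctsl*, *Ctnnb1*, *Top2a*, *Ddx5*, *H19*, *Anxa3*, *Pdgfra*, *Loxl2*, *Bax* and *Atr*. All 55536 gene identifiers were found in GENCODE M21, which gave names and coordinates.

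The 2 lanes of each library were summed. Totals were 30899823 to 48650315, so sampling error is small beside the spread between libraries except for genes of few counts. Group labels came from the deposited sample titles. The 3 *Cdk8* KO and 2 WT libraries were compared with the quasi-likelihood test of edgeR 4.0.16 (R 4.3.3), with TMM, filterByExpr by genotype and Benjamini-Hochberg adjustment over all genes tested, and a gene was called at an adjusted p under 0.05. The WT replicates are biological replicates by the study's methods, and the clones are separate lines. CPM used TMM, with a prior count of 2 on the log2 scale for ratios of single clones. SE is the fold change divided by the square root of the F statistic. Lists are described by counts and medians, with no set test. The filter can keep a member of few counts in WT through the clones alone. Shares above WT and medians of lists with such members therefore partly follow from the filter.

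Genes were named by rule: the kinase module, up to 12 called genes in each direction, up to 5 called members of a list or, where fewer than 2 passed, its 2 members of highest CPM, *Egr1* and *Ccnb1*, and the 8 genes of largest range among clones. Other genes, including most endoderm, pluripotency and neuroectoderm examples, were chosen after their values were seen. The members and the 25 lists were chosen with earlier results of these data known. Alternatives were RLE, DESeq2 1.42.0, limma voom (limma 3.58.1), no filter, all libraries of the multiplex with and without WT_2 under ATRi, the WT libraries as sequenced with the *Ccnc* clones, each library left out, and a stricter minimum of 20 CPM for chromosomes. Some members of the lists are counted in them but not reported singly here.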

Additional observations from a re-analysis of the deposited data

How the results depend on the processing

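The number of genes that passed depended on the settings. With DESeq2 232 genes rose and 171 fell, 123 and 16 of them by more than 2-fold, and with no filter on low counts 402 rose and 232 fell, 262 and 29 by more than 2-fold. With all libraries of the multiplex but WT_2 under ATRi 15 rose and 6 fell (10 and 2), with all 10 libraries 15 and 6 (13 and 3), and with the WT libraries as sequenced in the *Ccnc* multiplex 6 and 7 (5 and 4). With limma voom 2 genes fell by more than 2-fold, against 1. Leaving out 1 library at a time gave 0 to 84 raised and 0 to 55 lowered genes, 0 to 61 and 0 to 17 by more than 2-fold, with 0 when either WT library was left out and most when H4 was. The cause was not tested. Of 132 named genes tested, 118 kept the sign of their fold change in every setting that gave a value. The other 14 genes were uncalled. With the WT libraries of the *Ccnc* multiplex the log2 fold change was 0.02 for *Ccnd1*, -0.01 for *Mcm2*, 0.02 for *Dhx9*, 0.03 for *mt-Cytb* and 0.02 for *Atr*, and with limma voom it was -0.42 for *H19*. Leaving out 1 library gave -0.04 to 0.19 for *Med13*, -0.07 to 0.03 for *Med1*, -0.00 to 0.04 for *Yap1*, -0.07 to 0.19 for *Psmb10*, -0.02 to 0.01 for *Ccnd1*, -0.40 to 0.05 for *Rbpj*, -0.09 to 0.33 for *Ccng1*, -0.01 to 0.05 for *Mcm2*, -0.05 to 0.01 for *Dhx9*, -0.21 to 0.43 for *Hand1*, -0.08 to 0.26 for *mt-Co1*, -0.17 to 0.17 for *mt-Cytb*, -0.43 to 0.94 for *H19* and -0.12 to 0.11 for *Atr*. The median of the primitive endoderm list stayed between 1.73 and 2.48 in all settings. No paired analysis was possible because the clones and the WT replicates are different lines and share no numbering. With 2 WT and 3 KO libraries the test has 3 residual degrees of freedom, and genes of few counts are limited by depth.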
